A study of Mus musculus with 2 samples.

Results

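The regions described here are the places at the ends of protein-coding genes where DLX2 CUT&Tag peaks were found in both replicates. A region was any stretch of 1 bp or more that lay under peaks from both lists, on chromosomes 1 to 19 of the mouse build mm10. A region was kept when it lay within 2 kb of either end of a protein-coding gene in the RefSeq annotation of GRCm38.p6. Of 10812 shared regions, 697 met this rule, or 6.45% (95% Wilson interval 6.00 to 6.93%), and the other 10115 lay elsewhere. The 697 regions rested on 696 replicate 1 peaks and 687 replicate 2 peaks, out of 27789 and 61053 on these chromosomes. The libraries came from the maxillary process of wildtype C57BL/6 embryos at E12.5, with an antibody against DLX2. The 2 libraries formed 1 group of replicates, without a control library or a second genotype, so groups could not be compared and p-values are not given. The labels do not say whether the replicates came from separate embryos or pools. The labels describe sonicated chromatin and precipitation, whereas the study's methods describe tagging by a transposase.

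DLX2 is a homeodomain transcription factor of the cranial neural crest, the cells that build most of the upper jaw. Homeodomains of this family bind short AT-rich elements with a TAATT core, mostly in enhancers and promoters. The promoter lies around the start of a gene, where transcription begins, and the stop end is where the transcript is cleaved and receives its poly(A) tail. A divergent pair is a pair of neighbouring genes transcribed away from each other from a shared stretch of promoter sequence.

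The promoter windows met by a shared region were counted. Such windows exist only for the 16456 genes with a strand, and the share expected for stretches of their length was not computed. RefSeq promoter windows run from 250 bases before to 50 bases after a gene start, and 35 of 20084 windows, belonging to 32 genes, were met by a shared region. In 10 of the windows the summits of both replicates lay inside. The upstream stretches of 4 of these are shown, those in which some bases lay outside every annotated gene, because they belong to the promoters nearest which both replicates peaked. *Hdlbp* came from the rule for named regions, and *Acat2*, *Tcl1* and *Lce1d* were chosen after their values were seen. Each is written 5′ to 3′ on the strand of its gene and ends at the base before the gene start in GRCm38.p6, and capitals mark matches to the motifs searched.
Hdlbp (chr1:93478918-93478980, minus strand): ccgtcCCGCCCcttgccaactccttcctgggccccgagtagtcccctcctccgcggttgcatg
Acat2 (chr17:12960726-12960962, minus strand): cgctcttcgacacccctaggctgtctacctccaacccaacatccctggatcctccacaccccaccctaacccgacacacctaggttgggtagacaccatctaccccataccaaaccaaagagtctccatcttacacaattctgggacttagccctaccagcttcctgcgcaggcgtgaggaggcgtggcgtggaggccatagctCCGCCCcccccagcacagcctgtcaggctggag
Tcl1 (chr12:105222738-105222987, minus strand): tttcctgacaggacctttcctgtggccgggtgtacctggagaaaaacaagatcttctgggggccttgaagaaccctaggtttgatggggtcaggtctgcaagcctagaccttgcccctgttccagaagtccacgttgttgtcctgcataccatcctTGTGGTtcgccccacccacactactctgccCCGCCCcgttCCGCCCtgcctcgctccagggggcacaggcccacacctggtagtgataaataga
Lce1d (chr3:92687211-92687460, minus strand): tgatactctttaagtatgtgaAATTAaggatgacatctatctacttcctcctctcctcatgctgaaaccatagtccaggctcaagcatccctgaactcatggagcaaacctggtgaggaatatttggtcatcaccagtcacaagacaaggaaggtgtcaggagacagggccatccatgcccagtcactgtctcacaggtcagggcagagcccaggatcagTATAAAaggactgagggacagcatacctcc

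The stretch of *Hdlbp* lay just beyond its region, whose summits were 79 and 176 bases upstream, inside the neighbouring gene *Septin2*. The region at *Acat2*, which encodes a cytosolic acetyl-CoA acetyltransferase, covered the gene start with a fold of 5.37 in the first replicate and 7.10 in the second. Its summits lay 84 bases upstream in replicate 1 and 155 bases upstream in replicate 2. The region at *Tcl1*, an AKT co-activator, had folds of 4.79 and 4.28, with summits 104 and 38 bases upstream. Its GGGCGG matches lay within the region and its TGTGGT outside it. All 3 stretches other than that of *Lce1d*, a gene of the cornified envelope of skin, held GGGCGG on one of the strands. The stretch of *Lce1d* held TAATT, as its complement AATTA, and TATAAA, both outside its region at chr3:92687256-92687350. That region had folds of 5.05 and 3.81, with summits 85 bases upstream in replicate 1 and 5 bases inside the gene in replicate 2.

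The motifs were searched on both strands of whole windows, so a match can lie outside the shared region. TAATTA and the shorter TAATT within it are homeodomain cores, CACGTG is the E-box and TGTGGT is bound by RUNX factors. GGGCGG is the SP core, CCAAT is bound by NF-Y, and TATAAA is the TATA box. CCGGAAG is bound by ETS factors and ATGGCGGC by YY1. TAATTA was found in 0 of the 35 windows met by a shared region, against 4.47% of all windows. A count of 0 among 35 allows a share of up to 8.57%, so no difference was detectable at this number. TAATT was found in 3 of the 35 windows, or 8.57% (interval 2.96 to 22.4%), against 23.3% of all windows. GGGCGG was found in 60% of the windows met (interval 43.6 to 74.4%) and in 47.0% of all windows. The shares of the windows met were 34.3% for CCAAT, 20% for TGTGGT, 17.1% for TATAAA, 11.4% for CCGGAAG and 5.71% for CACGTG, and ATGGCGGC was found in 0. All windows held these in 38.1%, 14.8%, 12.7%, 11.9%, 7.89% and 3.08%, in the same order. TAATT was thus the only motif of the 9 whose interval left out the share of all windows, by a narrow margin. No allowance was made for reading 9 motifs. The intervals treat windows as independent, whereas the 35 windows belonged to 32 genes and some shared a region. The windows met had a median GC content of 62.7%, with quartiles of 53.7 and 66.5%, against 57.0% for all windows (48.7 and 65.0%). Their median ratio of observed to expected CpG was 0.583, and that of all windows was 0.586. Windows met by any replicate 2 peak also held TAATT less often than all windows, in 13.3% of 592, and had a median GC content of 61.3%.

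The folds of the regions were low in most cases. Fold is the peak caller's enrichment at the summit, the ratio of fragments plus 1 to the local background plus 1 in the same library. The median fold of the 697 regions was 4.73 in replicate 1 (quartiles 4.14 and 5.61) and 4.57 in replicate 2 (3.86 and 5.49). The medians of the shared regions elsewhere were 5.05 and 5.17. The number of fragments at a summit, recovered from the deposited fold and p, had a median of 6 in replicate 1 and 11 in replicate 2, against 7 and 12 elsewhere. The local background at the regions was slightly higher than elsewhere, with medians of 0.543 against 0.521 fragments in replicate 1 and 1.53 against 1.39 in replicate 2. A fold of at least 5 in both replicates was found for 159 regions, or 22.8% (interval 19.9 to 26.1%), and for 36.0% of the shared regions elsewhere (35.0 to 36.9%). At a fold of at least 10 the shares were close, with 4 regions at gene ends (0.574%) and 61 elsewhere (0.603%). Replicate 1 had the higher fold at 401 of the 697 regions, or 57.5% (53.8 to 61.2%), whereas elsewhere the share was 49.9%. The fold in replicate 2 was a median of 0.953 times that in replicate 1, and 7 regions differed by more than 2 times, from 0.421 times at *Gpx8* to 2.30 times at *Vwde*.

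**Figure D1:**
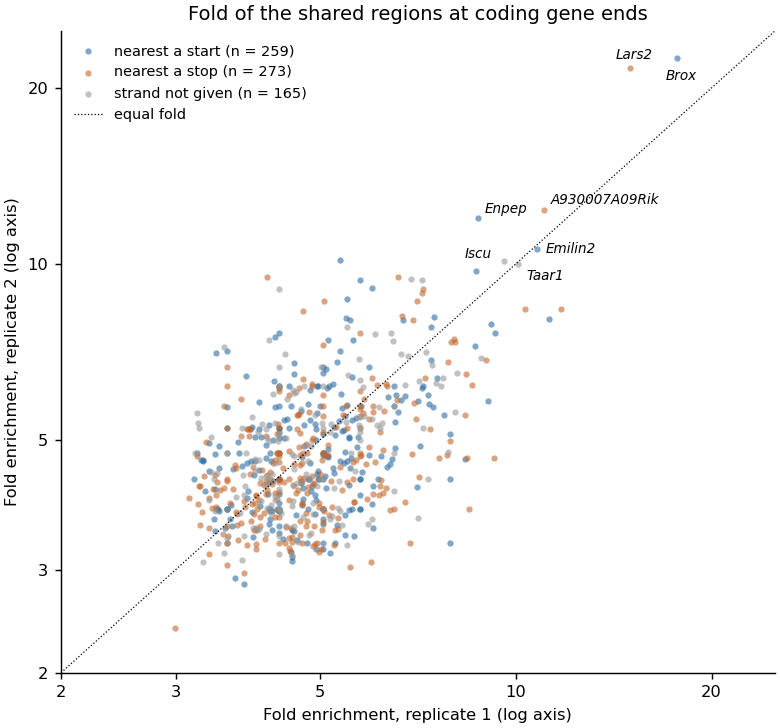
Fold enrichment of each of the 697 shared regions at coding gene ends in replicate 1 (horizontal) and replicate 2 (vertical), both on log axes, coloured by the kind of gene end that lay nearest. Both folds lie between 3 and 7 for 594 of the regions, and the regions at *Brox* and *Lars2* stand apart from the rest.

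The highest region lay at *Brox*, which encodes a BRO1 domain protein involved in repair of the nuclear envelope. It covered chr1:183299161-183299566, inside the gene and 1863 bp from its start, with a fold of 17.7 from 39 fragments in replicate 1 and 22.5 from 113 fragments in replicate 2. The local background at *Brox* was 1.26 and 4.07 fragments, against medians of 0.543 and 1.53 over the 697 regions. Whether raised coverage of the locus played a part was not tested, as there was no control library. Next was the region at the stop end of *Lars2*, the mitochondrial leucyl-tRNA synthetase, at chr9:123461849-123462173, where the folds were 15.0 and 21.6. Both summits at *Lars2* lay 676 bp from the stop. These 2 regions were the only ones above a fold of 13 in either replicate.

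The other regions with a high fold in both replicates lay at genes of varied function. A region of 765 bp lay beyond the stop end of *A930007A09Rik*, a gene of unnamed function, with folds of 11.05 and 12.4. Upstream of *Emilin2*, an elastic fibre glycoprotein, the folds were 10.8 and 10.6. At *Taar1*, a trace amine receptor, they were 10.1 and 9.996, which left it just under 10 in replicate 2. *Iscu*, the scaffold for iron-sulphur cluster assembly, had the longest region, 842 bp at chr5:113779981-113780822, with folds of 9.61 and 10.1. Within *Enpep*, a membrane aminopeptidase that cleaves angiotensin, the folds were 8.74 and 12.0. Within *Cdh23*, the cadherin of hair cell tip links, they were 8.69 and 9.72. The remaining 7 of the 15 highest regions, at *Rasal2*, *Cox19*, *Olfr763*, *Arl9*, *Mospd3*, *Jaml* and *Afg1l*, had folds of 7.5 to 11.7 in replicate 1 and 7.45 to 8.39 in replicate 2. In replicate 1 their order differed from that in replicate 2, with *Cox19*, a copper chaperone of cytochrome c oxidase assembly, at 11.7 and 8.36 and *Olfr763*, an olfactory receptor, at 11.3 and 8.06.

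Of the 20556 coding genes, 756 had a shared region within 2 kb of an end, or 3.68%, and are called marked. Single lists marked more genes, with 2401 (11.7%) in replicate 1 and 5680 (27.6%) in replicate 2. Of the marked genes, 724 had 1 region, 31 had 2 and 1 had 3. The 3 regions of *Dhx34*, a helicase of nonsense-mediated decay, lay inside the gene near its stop end, with folds of 6.03, 4.81 and 3.82 in replicate 1 and 5.58, 5.58 and 2.97 in replicate 2. The first 2 of them shared 1 replicate 2 peak of 642 bp. The first genes in chromosome order with 2 regions were *Wnt6*, *Mroh2a*, *Hdlbp* and *Septin2*, and *Hdlbp* and *Septin2* shared theirs, being a divergent pair.

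Most regions were in reach of a single gene. An end of 1 coding gene was within 2 kb for 619 regions, 2 genes for 75 and 3 for 2, at *Cers1*, *Gdf1* and *Upf1* and at *Mpv17*, *Trim54* and *Ucn*. A region at chr18:37187997-37188158 was in reach of 14 genes of the protocadherin alpha cluster, whose transcripts end in common exons. Chromosomes 7 and 11 held the most regions, with 67 and 62, and chromosome 12 the fewest, with 15. Per Mb within 2 kb of a coding gene end the numbers were more even, from 2.83 on chromosome 14 to 6.84 on chromosome 9, with 4.96 over all.

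The area around gene ends made up 5.84% of the bases of the same chromosomes, against the 6.45% of shared regions found there. The measures differ, because a region counts when any of its bases lies in the area, which raises its share. When both summits had to lie within 2 kb the share of regions was 6.12%. For the higher peaks the share of regions was below that of bases. With peaks of fold at least 5 in each replicate the share was 4.19% (interval 3.60 to 4.87%, 3796 regions), and for peaks whose −log10 q reached 5 it was 4.002% (3.16 to 5.05%, 1674 regions). The single lists had larger shares at gene ends, 8.19% of replicate 1 peaks and 9.73% of replicate 2 peaks. Peaks at gene ends were therefore met by the other replicate less often than peaks elsewhere. In replicate 1, 30.9% of 2277 peaks at gene ends met a replicate 2 peak (interval 29.1 to 32.8%), against 39.6% elsewhere (39.0 to 40.2%). In replicate 2 the shares were 11.9% of 5938 peaks (11.1 to 12.7%) and 17.9% (17.6 to 18.2%).

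The gap between gene ends and elsewhere varied with fold. Among replicate 1 peaks with a fold of 5 to 7, 44.2% of those at gene ends met a replicate 2 peak (interval 39.9 to 48.5%), and 56.8% of those elsewhere did (55.7 to 58.0%). The same bin of replicate 2 gave 29.6% (26.3 to 33.1%) and 39.4% (38.4 to 40.4%). At a fold of 7 or more the shares were close, with 90.5% and 90.2% in replicate 1 and 82.4% and 82.9% in replicate 2. Below a fold of 4 they were 18.7% and 20.4% in replicate 1 and 6.67% and 7.06% in replicate 2, with intervals that overlapped.

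**Figure D2:**
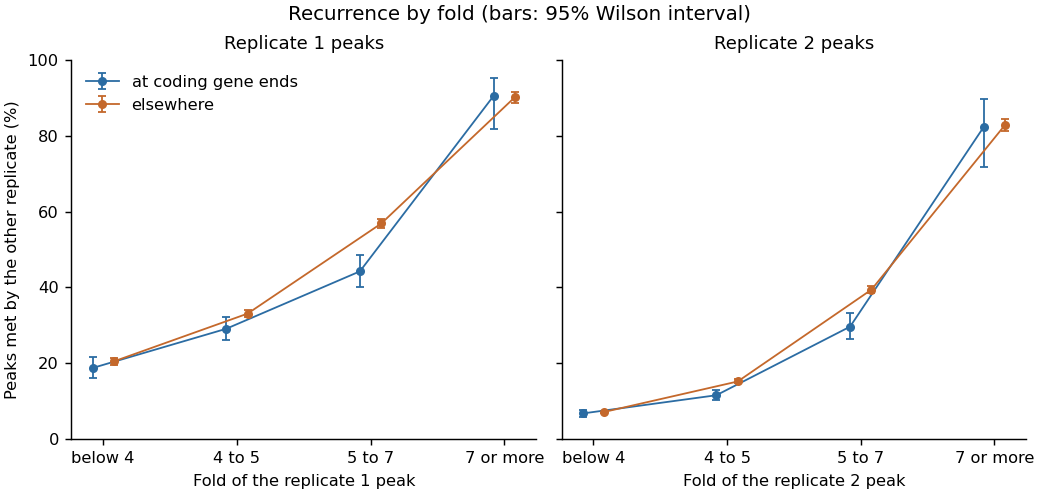
Percent of peaks met by a peak of the other replicate, by the fold of the peak, for peaks within 2 kb of a coding gene end and for peaks elsewhere, with 95% Wilson intervals. The lines part between folds of 4 and 7 and meet at 7 or more, where 90.5% and 90.2% of replicate 1 peaks were met.

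Starts and stops were told apart by strand, which the RefSeq promoter table gives for 16456 of the genes, and a start or stop is the outermost base of the gene's annotated extent. For 7.19% of these genes the outermost start lay over 2 kb from every start in the promoter table. Of the 532 regions whose nearest end had a strand, 259 lay nearest a start and 273 nearest a stop, so 48.7% were at starts (interval 44.5 to 52.9%). For 32 of the 259, or 12.4%, that outermost start lay over 2 kb from every start of the gene in the promoter table. The windows around starts and stops were of near equal size, 61.8 and 61.7 Mb. The median folds were 4.92 and 4.69 at starts and 4.67 and 4.30 at stops, in replicates 1 and 2. The median length was 130 bp at starts and 134 bp at stops. The nearest end of the other 165 regions belonged to a gene without a strand. The centre of 391 regions, or 56.1% (52.4 to 59.7%), lay inside a coding gene, and 55.0% of the bases near gene ends did.

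The summits did not gather at the ends themselves. The median distance from the summit to the nearest end was 1029 bp in replicate 1 (quartiles 513 and 1495) and 1023 bp in replicate 2 (519 and 1482). Within 250 bp of an end lay 63 replicate 1 summits, or 9.04% (interval 7.13 to 11.4%), and 60 replicate 2 summits, or 8.61% (6.75 to 10.9%). Per Mb this was 3.18 summits in replicate 1 and 3.02 in replicate 2, the lowest of the distance bins out to 50 kb. At 250 to 500 bp the density was 5.73 and 5.47, and at 20 to 50 kb it was 5.73 and 5.72. All peaks of each list were also least dense within 250 bp in replicate 1, at 13.1 per Mb against 16.9 at 250 to 500 bp. In replicate 2 they were denser within 250 bp, at 39.8 per Mb, than at 20 to 50 kb, at 29.7.

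Around starts and stops the profiles differed. Each summit was counted for every start or stop with a strand in reach. Within 250 bp of a start there were 36 replicate 1 and 33 replicate 2 summits of the shared regions, which per base was 0.973 and 0.898 times the number at 1 to 2 kb. Within 250 bp of a stop there were 19 and 15, or 0.481 and 0.390 times. Shared regions were thus about as frequent next to a start as farther from it, and less frequent next to a stop. All peaks of each list showed the same thinning at stops, with ratios of 0.483 in replicate 1 and 0.488 in replicate 2. At starts their ratios were 1.40 and 1.77, above those of the shared regions. With the 20084 starts of the promoter table in place of the outermost starts, an alternative chosen after the data were seen, the shared regions gave 0.949 and 0.947 and all peaks gave 1.59 and 1.87. Upstream of the start lay 147 of 293 shared summits in replicate 1 (50.2%, interval 44.5 to 55.9%), and of all replicate 2 peaks near a start 39.6% did (37.7 to 41.6%), so the replicate 2 list leaned to the transcribed side.

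**Figure D3:**
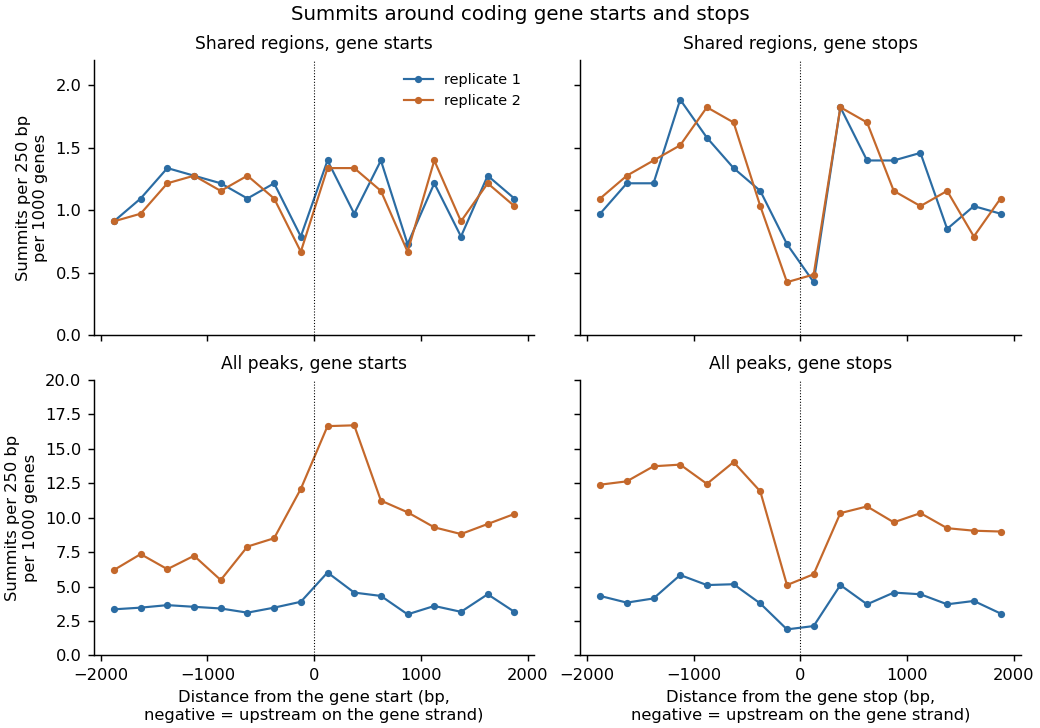
Summits per 250 bp and per 1000 genes against distance from the gene start (left) or stop (right), negative values lying upstream on the strand of the gene, for shared regions (top) and all peaks of each replicate (bottom). The stop panels dip within 250 bp, where shared regions gave ratios of 0.481 and 0.390 to the level at 1 to 2 kb, and the peak at starts appears in the full lists and not among the shared regions.

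Regions close to an end had lower folds than regions farther away. With the replicate 1 summit within 250 bp of the end nearest the region, 7 of 63 had a fold of at least 5 in both replicates, or 11.1% (interval 5.49 to 21.2%). At 1 to 2 kb there were 89 of 341, or 26.1% (21.7 to 31.0%). The median folds were 4.48 and 4.28 in the first bin and 4.76 and 4.62 in the second. On either side of the 2 kb limit, 61 regions lay in the last 250 bp inside it with median folds of 5.05 and 5.16, and 84 lay in the first 250 bp outside it with 5.05 and 4.95.

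The regions had a median length of 132 bp, against 2 kb searched on each side of an end. The share that would lie on an end by length alone was not computed. On a gene end lay 12 regions, or 1.72%, 9 of them on a start, 1 on a stop and 2 on the end of a gene without a strand. The highest of them, named here after their values were seen, was at *Wnt6*, a ligand of the Wnt pathway. It covered chr1:74754274-74754433 with 12 fragments in each replicate, folds of 7.76 and 5.52, and summits 52 and 54 bp from the outermost start. A second region lay 495 bp from the same start, with folds of 4.92 and 3.94. The start of *Wnt6* in the promoter table lay 17550 bp away, whereas the other 8 regions on a start lay within 2 kb of one in that table. *Hdac2*, a histone deacetylase, had a region on its start with folds of 4.33 and 6.19, and *Trap1*, a mitochondrial chaperone, had 4.16 and 4.04. *Nfe2*, a regulator of platelet formation, had 5.37 and 3.78. The 12 regions had folds of 3.60 to 7.76 in replicate 1 and 2.90 to 7.10 in replicate 2.

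Divergent pairs were examined next. There were 567 pairs of coding genes with starts within 1 kb, made of 1127 genes, with a median gap of 101 bp. A shared region lay within 2 kb of a start for 13 pairs, or 2.29% (interval 1.34 to 3.88%). Counted by gene, 26 of 1127 starts in pairs had a region, or 2.31% (1.58 to 3.36%), and 267 of 15329 other starts did, or 1.74% (1.55 to 1.96%). The intervals overlapped, and the starts of a pair share their regions, so the pairs were not shown to differ from other starts.

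Most of the 14 regions at divergent pairs lay beside the gap. The gap was a small part of the stretch searched, with a median of 101 bp against 2 kb on either side. The count therefore does not show that regions avoid the gap. A single region lay over the stretch between the starts, at *Smim7* and *Tmem38a*, a small membrane protein and a cation channel of the endoplasmic reticulum, with folds of 6.01 and 3.88 and a gap of 141 bp. Its replicate 1 summit lay between the starts and its replicate 2 summit inside *Smim7*. The highest region lay inside *Sptbn4*, a spectrin of axon initial segments that is paired with *Blvrb*, a biliverdin reductase, with folds of 6.59 and 5.59. *Hdlbp*, an RNA-binding protein, and *Septin2*, a cytoskeletal GTPase, had a region on each side of their gap of 64 bp, with folds of 5.68 and 5.46 in *Hdlbp* and 4.26 and 5.69 in *Septin2*. At *Polr3g*, a subunit of RNA polymerase III paired with *Mblac2*, the folds were 5.01 and 5.71, and the region lay on the side of *Mblac2*. At *Pus7l*, paired with *Irak4*, a kinase of Toll-like receptor signalling, they were 4.91 and 5.33, on the side of *Irak4*. At *Fbh1*, a DNA helicase paired with *Ankrd16*, they were 5.15 and 4.83, on the side of *Ankrd16*. The medians over the 14 regions were folds of 4.99 and 4.59 and a length of 127 bp, close to those of all 697.

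The shared regions at gene ends were short. Their median length was 132 bp (quartiles 95 and 199), from 4 to 842 bp, against 152 bp elsewhere (108 and 229). In 389 of the 697 the segment took up at least 90% of the replicate 1 peak. The replicate 1 peaks under the regions had a median length of 163 bp, against 186 bp elsewhere. The replicate 2 peaks had 278 bp, against 288 bp. The summits of the replicates lay a median of 70 bp apart, against 62 bp elsewhere, and within 50 bp of each other in 38.2% (interval 34.6 to 41.8%) against 43.4%. Segments under 50 bp numbered 60, and segments of 500 bp or more numbered 14.

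At equal numbers of fragments the difference in length turned with the replicate. Among replicate 1 peaks with 7 to 9 fragments the median was 193.5 bp at gene ends and 204 bp elsewhere. Among replicate 2 peaks with 10 to 14 fragments it was 293.5 bp at gene ends and 281 bp elsewhere. Replicate 1 peaks were shorter at gene ends in the 3 bins below 15 fragments, and replicate 2 peaks were longer at gene ends in all 4 bins. The longest regions after *Iscu* and *A930007A09Rik* were 700 bp at *Olfr763*, 697 bp at *Adcy6*, an adenylyl cyclase, and 647 bp at *Pcdhgc4*, a protocadherin of the gamma cluster.

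Genes were then grouped into 27 classes by symbol, and a list of genes of craniofacial development was read beside them, of which 121 matched the annotation. Each class was compared with the 3.68% of all coding genes, with no test. Of the 27 classes, 9 were above this share, 17 below it with at least 1 marked gene, and 1 had none. The intervals of 5 classes left out 3.68%. The intervals treat genes as independent, which clustered genes are not.

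Of the craniofacial genes, 3 were marked, or 2.48% (interval 0.847 to 7.04%). *Runx1*, a transcription factor of blood formation that is also active in the palate, had a region of 312 bp inside the gene, 1727 bp from a start, with folds of 7.40 from 12 fragments and 7.79 from 25. *Sp7*, which encodes the osteoblast factor osterix, had a region at chr15:102367498-102367832, 463 bp outside an end, with folds of 7.87 and 4.77. *Hey1*, a target of Notch signalling, had folds of 4.33 and 6.19. No *Dlx*, *Msx*, *Alx* or *Pax* gene of the list was marked. These families are a part of the 121 genes, too few for the lack of a marked one to set them apart. Outside the list, *Pax5*, named here after its values were seen, had a region near its stop end with folds of 6.95 and 8.03. The single lists marked 11 of the 121 genes in replicate 1 (9.09%, against 11.7% of all coding genes) and 30 in replicate 2 (24.8%, against 27.6%). These shares were near the background, and the interval of the shared regions took in 3.68%.

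Of the transcription factor classes, the zinc finger genes alone had an interval that left out 3.68%. Of 169 homeobox genes, 3 were marked (1.78%, interval 0.606 to 5.09%), namely *Hoxb13*, *Pou6f1* and *Irx5*, with folds of 4.16 to 5.47 in replicate 1 and 3.19 to 4.28 in replicate 2. Of 455 zinc finger genes named Zfp, Zscan, Zkscan or Zbtb, 8 were marked (1.76%, 0.894 to 3.43%), led by *Zfp358* with 6.19 and 5.15. The class of Sox, Fox, T-box and bHLH regulators had 2 marked genes of 121 (1.65%, 0.454 to 5.83%), *Hey1* and its relative *Heyl*, whose folds were 7.68 and 6.19. In the single lists this class lay slightly above all coding genes, at 12.4% against 11.7% in replicate 1 and 28.9% against 27.6% in replicate 2. In the class of Wnt, FGF, BMP, Hedgehog, Notch and endothelin signalling, 4 of 111 genes were marked (3.60%), the ligands *Wnt6*, *Wnt2* and *Bmp8a* and the receptor *Notch3*. Apart from *Wnt6*, their folds were 3.38 to 3.48 in replicate 1 and 4.13 to 4.43 in replicate 2.

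Genes of general cell functions were mostly near the background. No cytosolic ribosomal protein gene of 83 was marked, which allows a share of up to 3.61% by a count of 3 (upper Wilson bound 4.42%). These bounds lie on either side of 3.68%, so the class was not shown to differ. The single lists marked 5 of them in replicate 1 (6.02%, against 11.7% of all coding genes) and 20 in replicate 2 (24.1%, against 27.6%). The aminoacyl-tRNA synthetases, which charge tRNAs, had 3 of 37 marked (8.11%, interval 2.80 to 21.3%), with *Lars2* far above *Rars2* (4.39 and 4.47) and *Farsb* (5.05 and 3.33). Of 304 genes of the ubiquitin system, 13 were marked (4.28%), among them *Rnf152*, a ubiquitin ligase of lysosomes, with a region of 591 bp and folds of 4.70 and 8.30. The shares were 4.92% of 61 translation factors, 4% of 100 genes of RNA polymerase, general factors and Mediator, 3.85% of 78 mitochondrial ribosomal proteins and 3.66% of 82 genes of DNA repair and replication. Respiratory chain subunits (3.45% of 87), secretory and vesicle traffic (3.29% of 213), splicing factors (3.28% of 61), chaperones (2.33% of 86), cell cycle and mitosis (2.21% of 136), proteasome subunits (2% of 50) and histones (1.25% of 80) were lower. Each of these intervals took in 3.68%. Apart from *Lars2*, the highest of these classes were *Psmb8*, an immunoproteasome subunit, at 6.90 and 9.44, *Rab7b*, a GTPase of endosomal traffic, at 6.48 and 7.37, and *Dnajc11*, a mitochondrial co-chaperone, at 7.54 and 6.27.

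Cadherins and protocadherins, the adhesion proteins of cell contacts, had the highest share, 19 of 99 genes or 19.2% (interval 12.6 to 28.0%). The count rested on 9 regions, because the region with 14 genes in reach marked the protocadherin alpha cluster as a whole. Without it 7 genes were marked, or 7.07% (3.47 to 13.9%), and that interval took in 3.68%. The 7 were *Cdh23*, *Pcdh1*, *Pcdha1*, *Pcdha12*, *Pcdhb20*, *Pcdhb22* and *Pcdhgc4*. Of the 9 regions, 7 lay at protocadherins on chromosome 18 and 2 at the ends of *Cdh23* on chromosome 10. The highest at the clusters was that of *Pcdhb22*, with folds of 8.84 and 6.92, followed by *Pcdhgc4*, with 6.83 and 6.96. Per Mb near their ends this class had 14.3 regions, against 4.96 for all coding genes.

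**Figure D4:**
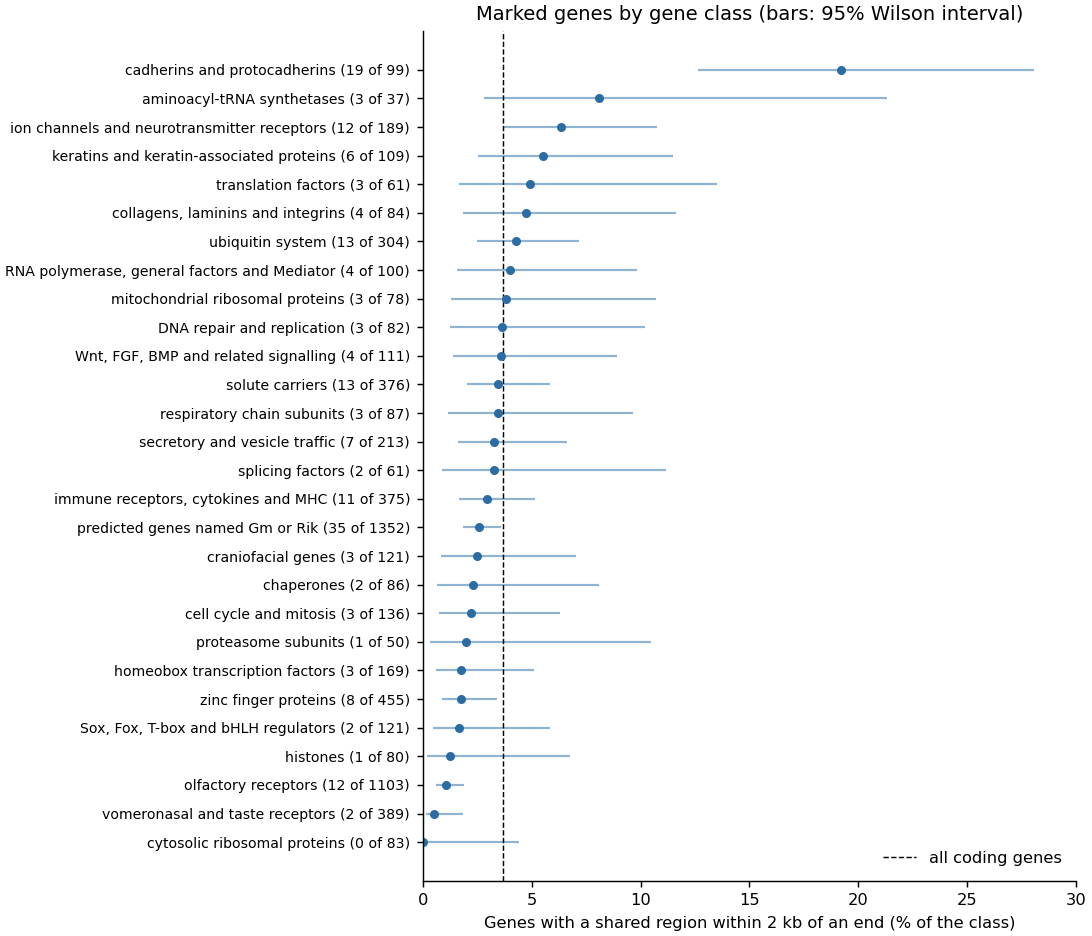
Percent of the genes of each class with a shared region within 2 kb of an end, with 95% Wilson intervals, and the 3.68% of all coding genes as a dashed line. Cadherins and protocadherins stand highest, where 14 genes share 1 region, and the olfactory, vomeronasal and taste receptors lie lowest among classes with a marked gene.

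Other classes of the cell surface and matrix were nearer the background. Ion channels and neurotransmitter receptors had 12 of 189 genes marked (6.35%, interval 3.67 to 10.8%), led by *Cacna2d2*, a calcium channel subunit, with folds of 6.11 and 6.20, and *Grin1*, the obligate NMDA receptor subunit, with 6.54 and 5.97. *Scn8a*, a sodium channel of neurons, had 4.33 and 7.62. Collagens, laminins and integrins had 4 of 84 marked (4.76%), the laminins *Lama4* and *Lamb3* and the integrins *Itga11* and *Itgad*. Their folds were 4.98 to 5.77 in replicate 1 and 3.91 to 5.48 in replicate 2. Solute carriers had 13 of 376 marked (3.46%), led by the mitochondrial carrier *Slc25a21* with 7.21 and 6.19 and the amino acid transporter *Slc36a1* with 6.02 and 9.10. Keratins and keratin-associated proteins had 6 of 109 marked (5.50%) by 5 regions, the highest at *Krt19*, a keratin of simple epithelia, with 8.07 and 5.58.

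Receptor families of the nose and mouth had the lowest shares among classes with a marked gene. Of 1103 olfactory receptors 12 were marked, or 1.09% (interval 0.623 to 1.89%), and of 389 vomeronasal and taste receptors 2 were, or 0.514% (0.141 to 1.86%). These genes are short, so the area near their ends was smaller, 5.33 and 6.04 kb per gene against 6.83 kb for all coding genes. Per Mb of that area they had 2.04 and 0.851 regions, still below 4.96. The marked ones with the highest folds had 11.3 and 8.06 at *Olfr763*, 5.77 and 6.33 at *Olfr632*, 7.46 and 5.69 at *Vmn2r2* and 5.77 and 5.16 at *Vmn1r218*. With a fold of at least 5 in both replicates, 0.544% of olfactory receptors stayed marked, and 0.514% of vomeronasal and taste receptors. All coding genes were marked at 0.851% at this setting, so both classes stood nearer to them than at the main setting. The smaller area near the ends of these genes was not allowed for in these shares. The single lists gave 2.81% and 8.70% of olfactory receptors and 1.03% and 2.06% of vomeronasal and taste receptors. Immune receptors, cytokines and MHC genes had 11 of 375 marked (2.93%), led by *H2-Aa*, an MHC class II chain, with 6.02 and 6.38. Predicted genes named Gm or Rik had 35 of 1352 (2.59%, 1.87 to 3.58%).

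The standing of a class in the shared regions was not always that in the single lists. Of the 27 classes, 6 were above the share of all coding genes in the shared regions and in both single lists, namely cadherins, aminoacyl-tRNA synthetases, ion channels, translation factors, collagens with laminins and integrins, and the ubiquitin system. Another 10 were below it in all 3, among them homeobox genes, zinc finger genes, histones, olfactory receptors, vomeronasal and taste receptors and cytosolic ribosomal proteins. The remaining 11 changed sides. Keratins, for example, were above it in replicate 1 (14.7% against 11.7%) and below it in replicate 2 (22.0% against 27.6%). Genes in no class were marked at 4.07% (interval 3.76 to 4.41%), slightly above all coding genes.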

How the data were processed

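CUT&Tag peaks of DLX2 were listed for 2 libraries, 1 list each, and the peaks were not called on pooled reads. Per the submitters' processing notes, the authors used Trim Galore 0.4.5, Bowtie 1.1.2 and MACS2 2.2.7 on build mm10, while the study's methods name other versions of the trimmer and bowtie2. Settings of the peak caller are not given in the sources used here. The deposited score equals the −log10 q multiplied by 10 and cut to a whole number. The deposited fold is the ratio described above, and the deposited −log10 p and −log10 q (p-value and q-value) are the peak caller's own. Peak coordinates and summits are deposited as positions in mm10. Read totals were not used here. Fragment numbers and background were recovered from the deposited fold and −log10 p, taking p as a Poisson upper tail, and 100% of peaks gave a whole number within 0.001. These numbers are an inference, and the lowest background was 0.387 fragments in replicate 1 and 1.10 in replicate 2.

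Shared segments were computed with pandas 2.3.3, scipy 1.17.1 and numpy 2.4.6 in Python 3.11.15, drawn with matplotlib 3.10.9 and checked with bedtools 2.31.1, which gave the same 10812. Of 20661 coding genes, 105 placed before 3 Mb were left out. Strand came from the RefSeq promoter table and was not given for 4100 genes. Intervals are 95% Wilson intervals and cover counting error only. The steps were tested on simulated data. The regions, gene classes and lists were chosen with earlier results of these data known. Named are the 15 regions whose lower fold of the replicates was highest, the 5 genes with the most regions (ties in chromosome order), craniofacial genes with a region, the 5 highest divergent pairs, up to 4 genes per class, of which the text gives a selection, and the 5 longest regions. Alternatives were a −log10 q or a fold of at least 5, a 1 kb distance, 50% overlap, both summits within 2 kb, replicate 1 peaks as units, divergent starts within 500 bp, and each replicate alone. With 1 group, no test between groups was made.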

Additional observations from a re-analysis of the deposited data

Results flagged for a closer look

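The X chromosome was outside the regions described above. It held 69 shared regions, of which 5 lay within 2 kb of an end of any of its 963 coding genes. No comparison of the report used these data. The count of 5 is small, and whether it departs from the 6.45% found on the chromosomes described above was not tested.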

How the results depend on the processing

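The values depended on which peaks were kept and on how near an end had to be. Against 697 regions, 67 were found when the −log10 q had to reach 5, 159 when the fold had to reach 5, 369 within 1 kb, 357 with 50% overlap, and 2277 to 5938 with a single replicate. The share of shared regions at gene ends was then 4.002%, 4.19%, 3.41% and 5.72%, and 8.19 to 9.73% with a single replicate. The share of marked genes was 0.336%, 0.851%, 1.96% and 1.92%, and 11.7 to 27.6%. The median summit distance under the same 4 settings was 1223, 1218, 536 and 1074 bp in replicate 1, and 989 bp with that replicate alone, and it was 1282, 1203, 555 and 1073 bp in replicate 2, and 939.5 bp alone. The median length rose to 280 bp at the q setting and 227 bp at the fold setting, against 132 bp. The share nearest a start was 56.5% at the fold setting. Divergent pairs with a region fell to 0.176% at the q setting and 0.529% at the fold setting, and were 7.58 to 16.0% with a single replicate. Of 27 classes, 9 lay above the share of all coding genes, and 13 to 14 did with a single replicate. Of 56 class shares at the q and fold settings, 44 left the interval of the class, and of 56 with a single replicate 48 did. Cadherins and protocadherins were marked at 3.03% at the q setting and 17.2% at the fold setting, against 19.2%. All coding genes were marked at 0.336% and 0.851% at these settings. The region at the protocadherin alpha cluster passed the fold setting and not the q setting. At both settings 0 homeobox genes were marked. The cause of these shifts was not tested beyond the smaller or larger number of peaks that each setting keeps. The number of regions was 662 when both summits had to lie within 2 kb and 704 when replicate 1 peaks were counted. Peaks resting on a median of 6 or 11 fragments limit the precision of each single region, and the depth of the libraries is unknown.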
